A study of Mus musculus with 6 samples.

Results

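The genes described here are 10 that Müller glia, the radial glia of the retina, use to keep the tissue fit for signalling: Slc1a3, Glul, Aqp4, Kcnj10, Car14, Sox9, Sox2, Hes1, Dkk3 and Gpr37. All probe sets whose platform annotation names 1 of these genes and no other were taken, which gave 21 of the 45037 probe sets of the array (10 of 18193 named genes). That rule reads names and no values, but the 10 genes were picked with earlier results of these data known. Of the 21, 17 passed the filter used in the study's methods, a mean log2 intensity above 7 in either genotype, and each gene kept at least 1. The 6 Affymetrix arrays of the series read RNA from whole adult retina, 3 of OC2-KO mice, which carry null alleles of Onecut2, and 3 of their wildtype littermates (OC2-WT), each numbered 1 to 3. Onecut2 is a transcription factor known for its part in the making of horizontal cells, interneurons of the outer retina. Strain, sex and age in days are not in the labels, nor is it said that arrays and animals match 1 to 1, so part of the spread given below may be technical.

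Müller glia span the retina and touch every neuron in it. They take up glutamate released at synapses and turn it into glutamine, carry potassium away from active neurons, move water toward vessels and vitreous, and buffer acid. When the retina is injured they become reactive, with more Gfap and other filaments, and in some injuries the uptake and channel genes fall while reactive genes climb. Adult OC2-KO retina was set against wildtype retina to look for phenotypes that staining had not shown, and genes of retinal stress were among those that the study followed up. The question taken here is where the homeostasis genes stood on the same arrays.

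The labels and the RNA were checked first. All 3 probe sets of Onecut2 itself were higher on every array labelled OC2-KO, at log2 intensities of 8.52 to 9.23 against 5.28 to 7.01 on the OC2-WT arrays. By the study's account these probes lie in the 3′ part of the gene. It reports the 5′ coding sequence as virtually undetectable by qPCR and OC2 protein as absent by staining, both without data shown. It proposes that leftover RNA is raised and yields no functional protein. The probe sets themselves check nothing about the null allele, so the genotypes below are those of the labels. Median intensity differed little between arrays, from 94.9 to 110. RNA integrity was read from Actb, whose 3′ control probe set exceeded its 5′ one by a log2 difference of 2.95 in OC2-WT replicate 3 and of 3.39 in OC2-KO replicate 3. The other 4 arrays stood at 0.71 to 1.41, and the genotypes overlapped (p = 0.6 by an exact two-sided permutation test that cannot go below 0.1). Arrays with equal replicate numbers deviated from their genotype means together and are called pairs. Xist and the Y-linked Eif2s3y gave a male pattern in pair 1, a female pattern in pair 2 and unlike patterns in pair 3, female for OC2-WT and male for OC2-KO.

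No homeostasis gene was called different between the genotypes. Of the 17 probe sets, 0 passed Benjamini-Hochberg adjustment over all 21176 probe sets tested (limma, adjusted p = 1.00 for each of them), and 0 passed at an unadjusted p of 0.05. The background for these counts was 0% of all probe sets after adjustment and 0.987% (209 probe sets) at the unadjusted threshold. The 17 log2 differences, OC2-KO minus OC2-WT, ran from -0.34 to 0.44, with 7 above and 10 below 0. Their median was -0.046, and the median over all probe sets tested was -0.00838. The 2 genotypes overlapped on every one of the 17, where 1.72% of all probe sets lay wholly higher and 1.56% wholly lower in OC2-KO. Without OC2-KO replicate 2 the unadjusted count over all probe sets was 560 in place of 209.

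How large a difference the arrays could have missed is given by the 95% interval of each log2 difference. For 9 of the 17 probe sets the interval lay between -1 and 1, so that neither a doubling nor a halving lay inside it. At least 1 such probe set came from each of 8 of the 10 genes. The intervals of the other 8 probe sets reached beyond -1 or 1, among them every probe set of Glul and Kcnj10. Some probe sets of Slc1a3, Aqp4 and Sox9 were also among them. Examples are 1452031_at (-0.82 to 1.09), 1425382_a_at (-2.02 to 1.33) and 1424950_at (-1.55 to 1.83), in that order. Much of the width of the intervals was spread between replicate numbers: with the number as a block the median SE of the 17 was 0.17 in place of 0.35. The intervals of 17 of 17 then lay between -1 and 1, though the upper end for Sox9 1424950_at rounded to 1.0. The block left 2 residual degrees of freedom, and limma drew the variance of each probe set toward that of all probe sets. These intervals rest on that shared variance and not on the pairs of a probe set alone. For Sox9 1424950_at the pairs differed by -0.80, 0.24 and 0.98. No label states that the numbers pair the arrays, and the block was taken from the correlation of these same arrays.

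**Figure D1:**
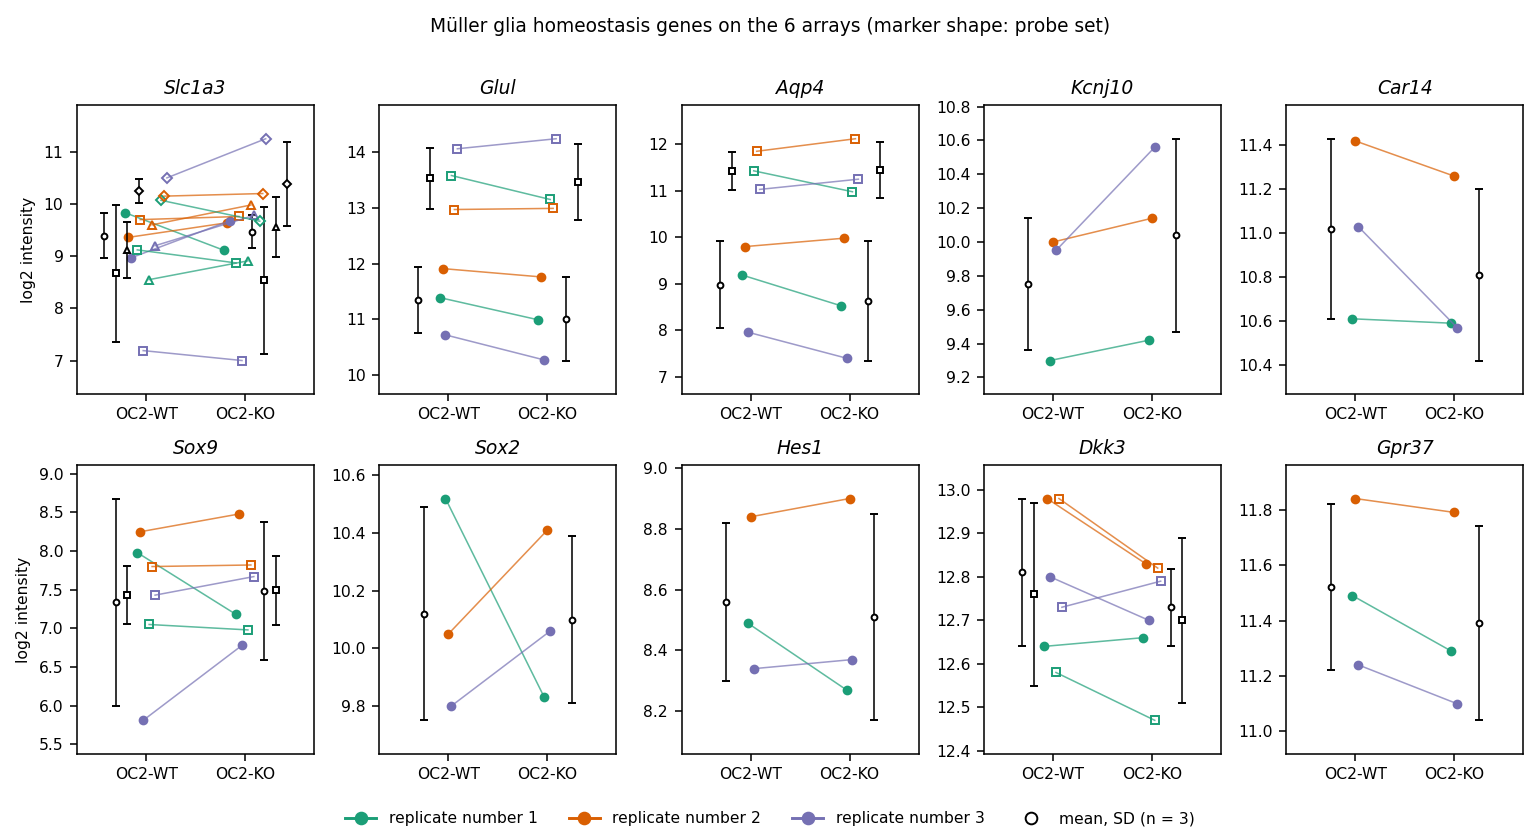
Log2 intensity (vertical axis, scaled by panel) of the 17 probe sets by genotype (horizontal axis), with marker shapes for probe sets of 1 gene, coloured lines joining arrays of the same replicate number, and black symbols for the mean and SD of 3 arrays. OC2-WT and OC2-KO arrays overlap in every panel, and Kcnj10 runs from 9.30 to 10.00 on the OC2-WT arrays and from 9.42 to 10.56 on the OC2-KO arrays.

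Glutamate handling rests on 2 of the genes. Slc1a3 encodes the glutamate transporter GLAST, the main route of glutamate into Müller glia, and Glul encodes glutamine synthetase, which joins that glutamate to ammonia. The 250 bases before their annotated starts (RefSeq, GRCm38.p6) are shown because these 2 genes act in 1 pathway and are set beside Gfap, the filament gene that marks reactive glia, whose stretch is given with them. Capitals mark letters that match any of 4 motifs, searched on both strands: the STAT type TTCNNNGAA, the Onecut type ATCAAT, the E box CACGTG and the N box CACNAG, which are patterns bound by STAT, Onecut and basic helix-loop-helix factors such as Hes1.
Slc1a3, chr15:8710808-8711057, minus strand: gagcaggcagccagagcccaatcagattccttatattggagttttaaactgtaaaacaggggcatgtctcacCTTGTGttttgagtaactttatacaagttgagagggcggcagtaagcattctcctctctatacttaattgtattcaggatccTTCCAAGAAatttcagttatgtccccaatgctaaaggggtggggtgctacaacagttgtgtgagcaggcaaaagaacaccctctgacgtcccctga
Glul, chr1:153899679-153899928, plus strand: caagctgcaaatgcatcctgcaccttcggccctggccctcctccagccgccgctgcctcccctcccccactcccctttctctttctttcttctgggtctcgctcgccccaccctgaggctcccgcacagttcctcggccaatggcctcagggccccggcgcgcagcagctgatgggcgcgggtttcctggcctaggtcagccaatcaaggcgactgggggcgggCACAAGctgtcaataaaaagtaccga
Gfap, chr11:102897201-102897450, minus strand: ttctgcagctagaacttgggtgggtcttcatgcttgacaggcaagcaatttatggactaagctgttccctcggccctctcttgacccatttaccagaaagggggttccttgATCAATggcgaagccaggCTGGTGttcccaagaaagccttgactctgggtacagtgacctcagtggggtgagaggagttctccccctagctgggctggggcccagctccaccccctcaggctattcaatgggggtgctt

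The stretch of Slc1a3 held 1 STAT type match 96 bases before the start and 1 N box, that of Glul held 1 N box 26 bases before the start, and that of Gfap held 1 Onecut type match and 1 N box. Of all 32851 promoter stretches of that length, 7.02% held the STAT type, 6.72% the Onecut type, 6.02% the E box and 36.7% the N box. Promoter sequence was at hand for 6 of the 10 genes, Slc1a3, Glul, Kcnj10, Car14, Sox2 and Gpr37. Among these 6, the STAT type was found in Slc1a3 alone, the N box in 3 (Slc1a3, Glul and Gpr37), and the Onecut type and the E box in 0. Of the reactive and stress genes taken up below, 14 had a promoter sequence, not the same 14 that passed the filter. The Onecut type was found in 1 of them (Gfap), the STAT type in 1 (Socs3), the E box in 1 (Gadd45b) and the N box in 4. A match describes letters and is no sign of binding.

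Slc1a3 was read by 6 probe sets, 4 of which passed the filter. On 1452031_at, the brightest over all arrays, log2 intensity was 10.07, 10.15 and 10.50 in OC2-WT replicates 1, 2 and 3 and 9.67, 10.20 and 11.25 in OC2-KO replicates 1, 2 and 3. OC2-KO held both the lowest and the highest array, and the difference was 0.14 ± 0.41 (SE). On 1443749_x_at, whose suffix marks probes that may bind other sequences, OC2-WT stood at 8.55, 9.60 and 9.20 and OC2-KO at 8.91, 9.98 and 9.78. Each OC2-KO array exceeded its OC2-WT partner there, by 0.36, 0.38 and 0.58, and the genotypes overlapped. This was the largest difference of the 17, at 0.44 ± 0.38 (SE) with a 95% interval from -0.46 to 1.34. With the replicate number as a block it was the 1 probe set of the 17 (5.88%) at an unadjusted p of 0.05, where 4.19% of all probe sets passed, and its adjusted p was 0.999 (limma). The remaining 2 probe sets differed by 0.087 ± 0.30 (SE) on 1426340_at and by -0.13 ± 0.85 (SE) on 1426341_at.

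One dim probe set of Slc1a3 behaved otherwise. On 1439072_at, log2 intensity was 4.07, 3.70 and 3.96 on the OC2-WT arrays and 6.30, 6.39 and 5.65 on the OC2-KO arrays, so that the genotypes did not overlap. All 6 values lay under the median of their arrays, whose log2 ran from 6.57 to 6.79, and the probe set did not pass the filter. In a fit without a filter the difference was 2.20 ± 0.32 (SE) with an adjusted p of 1.00 (limma). The size rests on values near the bottom of the scale: with every value under 6 raised to 6, a setting chosen after seeing the data, the difference was 0.23. The other dim probe set, 1440491_at, ran from 2.11 to 5.28 on the OC2-WT arrays and from 3.67 to 6.27 on the OC2-KO arrays. None of the 4 brighter probe sets of the gene showed a difference of that size.

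Glul was read by 2 probe sets. On 1426236_a_at, log2 intensity was 13.58, 12.97 and 14.06 on the OC2-WT arrays and 13.15, 12.99 and 14.24 on the OC2-KO arrays, which gave a difference of -0.074 ± 0.42 (SE). Replicate 3 was the highest and replicate 2 the lowest in both genotypes. On 1426235_a_at it was 11.39, 11.91 and 10.72 on the OC2-WT arrays and 10.99, 11.76 and 10.27 on the OC2-KO arrays, and here the order of the replicates was turned, with replicate 2 highest and replicate 3 lowest. Each OC2-KO array stood under its partner on that probe set, by log2 differences of -0.40, -0.14 and -0.45. The mean difference was -0.33 ± 0.45 (SE), with a 95% interval from -1.40 to 0.73 without the block and from -0.73 to 0.07 with it.

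Water and potassium are handled by Aqp4, the water channel of glial endfeet, and Kcnj10, the inwardly rectifying channel Kir4.1 that sets the potassium conductance of Müller glia. On 1434449_at, the brighter of the Aqp4 probe sets that passed, log2 intensity was 11.43, 11.85 and 11.03 on the OC2-WT arrays and 10.98, 12.12 and 11.25 on the OC2-KO arrays. The means, 11.43 ± 0.41 and 11.45 ± 0.60 (SD, n = 3), differed by 0.016 ± 0.36 (SE), within a 95% interval from -0.84 to 0.87. On 1425382_a_at, OC2-WT stood at 9.19, 9.80 and 7.96 and OC2-KO at 8.53, 9.98 and 7.40. The replicate 3 arrays were the lowest of each genotype on it, and the difference of -0.34 ± 0.71 (SE) was smaller than the spread among arrays of 1 genotype. A dimmer Aqp4 probe set, 1447745_at, did not pass the filter and ran from 5.70 to 7.02 on the OC2-WT arrays and from 6.38 to 6.76 on the OC2-KO arrays. For Kcnj10, on 1419601_at, log2 intensity was 9.30, 10.00 and 9.95 on the OC2-WT arrays and 9.42, 10.14 and 10.56 on the OC2-KO arrays. Each OC2-KO array stood above its partner, by 0.12, 0.14 and 0.60, and the difference was 0.29 ± 0.35 (SE) with a 95% interval from -0.54 to 1.12. Neither channel gene differed beyond the spread between arrays.

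Car14, which encodes a membrane-bound carbonic anhydrase facing the extracellular space, was read by 1450725_s_at. Log2 intensity was 10.61, 11.42 and 11.03 on the OC2-WT arrays and 10.59, 11.26 and 10.57 on the OC2-KO arrays. OC2-KO was the lower array in 3 of 3 pairs, at differences of -0.012, -0.16 and -0.46, while the 2 genotypes overlapped. The difference was -0.21 ± 0.31 (SE), and its interval ran from -0.93 to 0.51. Car14 is also a gene of the retinal pigment epithelium, the pigmented layer behind the retina. The 5 pigment epithelium markers that passed the filter had a summed intensity above 0 on every array. It ran from 21800 to 77900 on the OC2-WT arrays and from 12800 to 63700 on the OC2-KO arrays. Most of each sum came from Ttr, the brightest marker, at log2 intensities of 13.48 to 16.12. Of the 5, 3 were lower and 2 higher in OC2-KO, at differences from -0.67 to 0.43. Rpe65 was lowest in OC2-KO replicate 1, at a log2 intensity of 9.15 against 10.65 to 11.14 on the other arrays. The part of the pigment epithelium in the value of Car14 was not tested.

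Transcription factors are encoded by 3 of the genes. Sox9 and Sox2 carry an HMG box and keep Müller glia in their mature state, and Sox2 is also made by some amacrine cells. Hes1 is a repressor that relays Notch signals. On 1416967_at, Sox2 stood at 10.52, 10.05 and 9.80 on the OC2-WT arrays and at 9.83, 10.41 and 10.06 on the OC2-KO arrays. The arrays of pair 1 differed one way, by -0.69, and those of pairs 2 and 3 the other way, by 0.36 and 0.26, so that the mean difference was -0.026 ± 0.28 (SE). For Hes1, on 1418102_at, log2 intensity was 8.49, 8.84 and 8.34 on the OC2-WT arrays and 8.27, 8.90 and 8.37 on the OC2-KO arrays. That difference was -0.046 ± 0.26 (SE), and its interval from -0.66 to 0.57 was among the narrower of the set. For Sox9, on 1451538_at, the values were 7.05, 7.80 and 7.43 on the OC2-WT arrays and 6.98, 7.82 and 7.67 on the OC2-KO arrays. The means of 7.43 ± 0.38 and 7.49 ± 0.45 (SD, n = 3) were apart by 0.064 ± 0.31 (SE). Another Sox9 probe set, 1424950_at, held 5.81 in OC2-WT replicate 3 and 6.78 in OC2-KO replicate 3 against 7.18 to 8.48 elsewhere. Its means of 7.34 and 7.48 differed by 0.14 ± 0.72 (SE). The dimmest, 1433889_at, did not pass the filter, at 1.52 to 3.54. With each gene read by its brightest probe set, the log2 differences of these factors were the closest to 0 of any group here, from -0.046 to 0.064. Sox9 1424950_at, nearly as bright as 1451538_at, lay outside that range.

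Dkk3 and Gpr37 act at or beyond the cell surface. Dkk3 encodes a secreted protein of the Dickkopf family, and Gpr37 a G protein-coupled receptor for which prosaposin has been proposed as a ligand. Dkk3 varied least of all the genes. On 1417312_at it stood at 12.64, 12.98 and 12.80 on the OC2-WT arrays and at 12.66, 12.83 and 12.70 on the OC2-KO arrays, and on 1448669_at at 12.58, 12.98 and 12.73 and at 12.47, 12.82 and 12.79. The 2 probe sets gave nearly the same difference, -0.073 ± 0.20 and -0.065 ± 0.22 (SE). The intervals, from -0.55 to 0.41 and from -0.59 to 0.46, were the narrowest of the 17. For Gpr37, on 1450875_at, log2 intensity was 11.49, 11.84 and 11.24 on the OC2-WT arrays and 11.29, 11.79 and 11.10 on the OC2-KO arrays. Again OC2-KO was the lower array in 3 of 3 pairs, at -0.20, -0.053 and -0.14, and the mean difference was -0.13 ± 0.27 (SE). Over the 17 probe sets, 2 were higher and 3 lower in OC2-KO in 3 of 3 pairs, where 10.3% of all probe sets were higher and 12.4% lower in every pair.

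**Figure D2:**
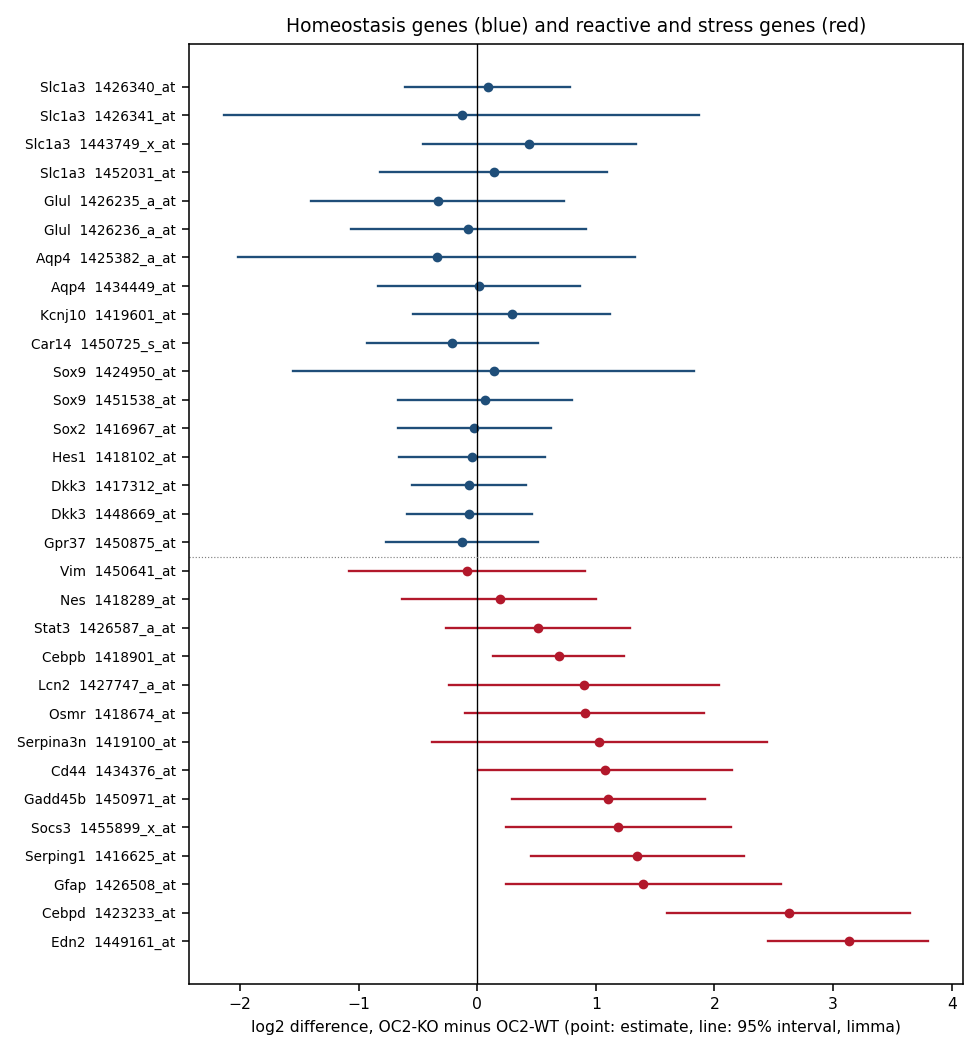
Log2 difference, OC2-KO minus OC2-WT (horizontal axis, points), with its 95% interval (lines, limma), for the 17 homeostasis probe sets in blue and for the brightest probe set of 14 reactive and stress genes in red (vertical axis). The blue points lie between -0.34 and 0.44, and the red ones between -0.085 (Vim) and 3.13 (Edn2).

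The homeostasis genes varied with the replicate number of the arrays. The mean of the 2 arrays of a number was highest for number 2 in 14 of the 17 probe sets (82.4%), while number 2 was highest in 36.0% of all probe sets tested. The exceptions were Glul 1426236_a_at, Kcnj10 and Slc1a3 1452031_at, which were highest in number 3. The median SD over the 6 arrays was 0.46 for the 17 probe sets and 0.34 for all. Within pairs, 14 of the 17 were lower in OC2-KO in pair 1 (median -0.26), 5 in pair 2 (median 0.053) and 6 in pair 3 (median 0.18). The medians over all probe sets were -0.025, -0.00455 and -0.00454 in pairs 1, 2 and 3. Other lists also differed by pair, with medians of -0.42, -0.093 and 0.25 for 8 amacrine genes and of -0.55, 1.00 and 2.67 for 6 lens genes, and their part in the values of the homeostasis genes was not tested. Probe sets of 1 gene share its transcript, so they are not independent readings of a pair. In RNA of whole retina, fewer Müller glia and less RNA per cell cannot be told apart, and all values are relative to the mean of their array. By glutamine synthetase staining and in situ hybridization, the study saw no change in the Müller glia of adult OC2-KO retina.

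The probe sets of 1 gene parted on the replicate 3 arrays. For Glul, the log2 difference of 1426235_a_at minus 1426236_a_at, centred on its mean over the 6 arrays, was -1.01 in OC2-WT replicate 3 and -1.65 in OC2-KO replicate 3 and lay between 0.14 and 1.27 on the other 4. For Slc1a3, 1426341_at minus 1452031_at was -1.61 and -2.55 on the replicate 3 arrays and 0.76 to 1.26 on the rest, the widest split of the 6 pairings of its probe sets. Both replicate 3 arrays lay outside the range of the others in 4 of those 6, and not for 1426340_at minus 1443749_x_at or 1443749_x_at minus 1452031_at. The same split was present for Aqp4, where 1425382_a_at minus 1434449_at was -0.44 and -1.21 against 0.19 to 0.58, and for Sox9, where 1424950_at minus 1451538_at was -1.58 and -0.84 against 0.25 to 0.97. The pair of Dkk3 probe sets showed no such split, with values from -0.13 to 0.15 on all arrays. These are the arrays with the high 3′ to 5′ difference of Actb, and its part in the split was not tested. Their sample titles are also worded in another form than those of the other arrays, and no label says why. Without pair 3, the median of the members was -0.12 in place of -0.046, and again 0 probe sets were called.

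**Figure D3:**
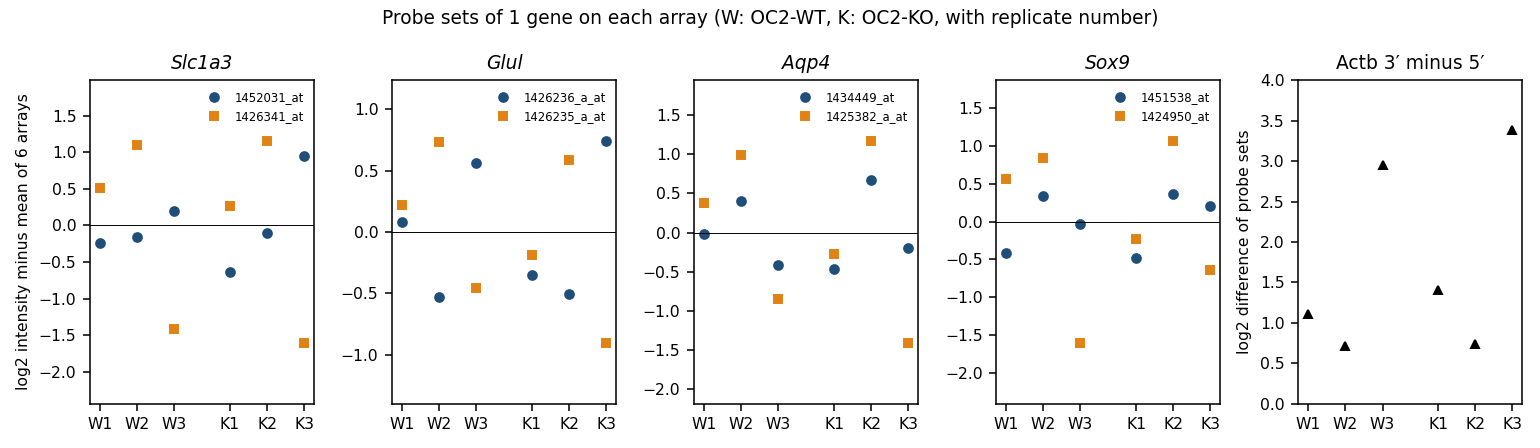
Log2 intensity minus its mean over the 6 arrays (vertical axis) for 2 probe sets each of Slc1a3, Glul, Aqp4 and Sox9, by array (horizontal axis, W for OC2-WT and K for OC2-KO with the replicate number), and in the last panel the 3′ minus 5′ log2 difference of Actb. The 2 probe sets of each gene part on W3 and K3, the arrays at 2.95 and 3.39 in the last panel.

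The reactive and stress genes gave other values on these arrays. Of 16 listed, 14 passed the filter, and 13 of them were above 0, with a median log2 difference of 1.06. Those at an unadjusted p of 0.05 numbered 8, all higher (background 0.987%), and 0 passed adjustment (limma). With the replicate block they numbered 11, and 4.19% of all probe sets passed. Edn2, which encodes a vasoactive peptide, had the largest difference, 3.13 ± 0.29 (SE), and Cebpd, a transcription factor of acute inflammation, followed at 2.63 ± 0.43 (SE). Gfap stood at 6.12, 7.58 and 8.03 on the OC2-WT arrays and at 8.61, 9.00 and 8.31 on the OC2-KO arrays, which gave a difference of 1.40 ± 0.49 (SE). The cytokine signalling inhibitor gene Socs3 and the complement inhibitor gene Serping1 differed by 1.19 and 1.35. Vim, an intermediate filament gene that resting Müller glia already express, differed by -0.085 ± 0.42 (SE). The study also reports Gfap, Edn2 and Cebpd as significantly higher by qPCR in adult OC2-KO retina, and more GFAP protein in Müller glia by staining. Gfap, Edn2, Cebpd and Cd44 were named by the study from these arrays. The list was drawn up with that known, so its direction on the arrays is not independent evidence. Without these 4 genes the median was 0.90, and 4 genes were counted. The rest were also listed with earlier results of these data known. The count was 5 and the median 0.67 without OC2-KO replicate 2, and the median was 1.39 without OC2-KO replicate 3.

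From pair to pair, the homeostasis and the reactive genes had unlike medians. The median of the 14 reactive genes was 1.07, 1.40 and 0.50 in pairs 1, 2 and 3, and that of the 17 homeostasis probe sets -0.26, 0.053 and 0.18. The 17 ran from -0.80 to 0.36 in pair 1, from -0.16 to 0.38 in pair 2 and from -0.56 to 0.98 in pair 3. Gfap differed by 2.49, 1.42 and 0.28 in pairs 1, 2 and 3, while Edn2 (3.66, 2.97 and 2.76) and Cebpd (3.38, 2.40 and 2.10) were high in all. In each pair there were homeostasis probe sets on both sides of 0, such as Kcnj10 at 0.12 and Sox2 at -0.69 in pair 1 and Kcnj10 at 0.60 and Car14 at -0.46 in pair 3. With 3 pairs this is a description only. Whether the 2 groups differ from each other was not tested, since the members were chosen with results known.

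**Figure D4:**
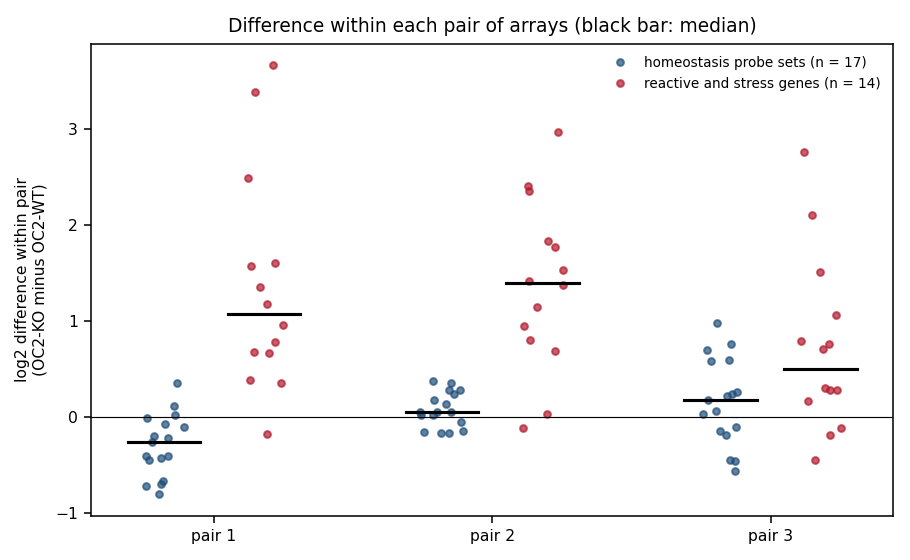
Log2 difference within each pair of arrays (vertical axis, OC2-KO minus OC2-WT) for pairs 1 to 3 (horizontal axis), with a point for each of 17 homeostasis probe sets (blue) and 14 reactive and stress genes (red) and black bars for medians. The blue medians are -0.26, 0.053 and 0.18 and the red ones 1.07, 1.40 and 0.50.

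Genes that work with the members were looked at in the same way, each by its brightest probe set that passed. Of 9 measured partners in glutamate and glutamine handling, 0 were counted at an unadjusted p of 0.05 in either direction, and their differences ran from -0.34 for the glutamate dehydrogenase gene Glud1 to 0.18 for the transporter gene Slc1a2. Of 7 partners in water and potassium handling, 0 were counted. Kcnj13, a further inward rectifier, was lower in 3 of 3 pairs at -0.33 ± 0.29 (SE), as were 12.4% of all probe sets. Dmd, whose short product anchors Kcnj10 and Aqp4 channels at the endfeet, differed by 0.24 ± 0.44 (SE). Of 8 acid-base partners, 0 were counted, and the bicarbonate transporter gene Slc4a4 differed by -0.28 ± 0.32 (SE). Car8, a relative of Car14 without catalytic activity, was on that list too. From these arrays the study names it as a bipolar cell gene with significantly lower signal in OC2-KO retina. Its brightest probe set stood at 11.42, 11.37 and 11.33 on the OC2-WT arrays and at 10.99, 11.21 and 11.23 on the OC2-KO arrays. The genotypes did not overlap there, and the difference was -0.23 ± 0.20 (SE). Of 4 partners of Dkk3 and Gpr37, 0 were counted, among them Psap, the gene of prosaposin, at -0.12 ± 0.19 (SE). Of 19 Notch and glial fate genes, 1 was counted and it was lower: Id2, an inhibitor of basic helix-loop-helix factors, at 9.29, 9.55 and 9.56 on the OC2-WT arrays and 8.57, 8.92 and 8.93 on the OC2-KO arrays. Its difference was -0.66 ± 0.22 (SE), without overlap between the genotypes. Hes5, the Notch effector related to Hes1, stood at 2.40 in OC2-WT replicate 3 against 7.01 to 7.78 on the other arrays, and its difference was 4.63 in pair 3 against -0.49 and 0.30 in pairs 1 and 2.

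Markers were used to check the cells behind the values. All of the 11 other Müller glia genes that passed the filter were present on every array, with no log2 intensity under 8.72, and of 12 listed 1 did not pass. Their differences ran from -0.17 to 0.70 with a median of 0.15, and 8 were above 0. Crym, which encodes a thyroid hormone-binding crystallin, was the 1 gene of that list counted at an unadjusted p of 0.05, at 10.57, 10.78 and 10.34 on the OC2-WT arrays and 11.24, 11.38 and 11.16 on the OC2-KO arrays. Pdpn, the gene of the membrane glycoprotein podoplanin, also did not overlap between the genotypes and differed by 0.47 ± 0.22 (SE). Astrocytes express several of the 10 homeostasis genes too, and the summed intensity of the 4 astrocyte markers that passed ran from 1270 to 2340 on the OC2-WT arrays and from 1550 to 3610 on the OC2-KO arrays. The gap junction gene Gja1 had the largest difference of them, 0.93 ± 0.62 (SE), with 3 of 3 pairs higher in OC2-KO, and 0 of the 4 were counted. The 6 microglia markers that passed had a summed intensity of 2450 to 2910 in wildtype and of 3330 to 4120 in OC2-KO retina, without overlap, and 1 was counted, the adaptor gene Tyrobp, at 1.05 ± 0.30 (SE). Rod genes, which dominate the retina and were at their highest on the replicate 3 arrays, summed to between 109000 and 377000 in OC2-WT and to between 101000 and 312000 in OC2-KO. With the replicate block, 1 astrocyte gene (Gja1) and 4 microglia genes were counted, against 4.19% of all probe sets. The 6 lens genes had a median of 0.98, all above 0 with 0 counted, and summed to 4890 to 55600 in wildtype and 30200 to 47400 in OC2-KO retina, with OC2-WT replicate 3 the lowest array. The 4 endothelial and pericyte genes that passed had differences from 0.11 to 0.47, with 0 counted and 1 with the block. Horizontal cell genes, 5 of which passed, were all below 0 with a median of -0.57, and of 8 amacrine genes, a class of neuron that shares Sox2, 0 were counted. The part of these cells in the values of the homeostasis genes was not tested.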

How the data were processed

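Retinal RNA was amplified, labelled with biotin and read by the authors on 1 Affymetrix mouse genome array per sample, with MAS5 for background and normalization (version not given in the sources used here). Deposited were linear intensities, 45101 per array, with a 2% trimmed mean that the authors set at 500, so that a change common to all genes is lost. After log2, 64 control probe sets were dropped, and 21176 of the rest exceeded a mean of 7 in either genotype. Probe sets with several symbols were not named. All 6 arrays entered one fit (limma 3.58.1, R 4.3.3; lmFit, then eBayes), which had no block and 4 residual degrees of freedom. Its two-sided p-values were adjusted over all probe sets tested (Benjamini-Hochberg). The fit was also run on simulated data with independent noise on each array, which held no spread shared within a replicate number.

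The members, the gene lists and the tests were chosen with earlier results of these data known. Named are all probe sets of the members, reactive genes by their brightest probe set, and from each other list up to 4 genes, taken among the 4 of smallest p. The replicate numbers were taken as pairs because array deviations correlated at 0.576 to 0.590 within a number and at -0.429 to -0.135 across numbers. No label states this pairing. Other settings tried were the filter, a floor at 6, the scaling (quantile, median), an intensity trend, array weights, the replicate block, the methods' t-test, also with unequal variances, the rule for probe sets, and the omission of each array or pair. Promoter sequences came from RefSeq.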

Additional observations from a re-analysis of the deposited data

Results flagged for a closer look

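One probe set of Slc1a3, 1439072_at, fell outside the comparison because it did not pass the filter, yet all OC2-KO arrays lay above all OC2-WT arrays, at a difference of 2.20 in log2 intensity. The values were 4.07, 3.70 and 3.96 on the OC2-WT arrays and 6.30, 6.39 and 5.65 on the OC2-KO arrays, in a range where intensities lie under the median of the array. Of the 4 members' probe sets that did not pass, it was the 1 with this pattern. How many other probe sets below the filter show it was not counted. Of those that passed, 1.72% lay wholly higher in OC2-KO. With every value under 6 raised to 6, a setting chosen after seeing the data, the difference was 0.23.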

How the results depend on the processing

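No homeostasis probe set passed adjustment under any of the alternatives run, with a lowest adjusted p of 0.998 (limma with array weights). In 354 comparisons of a probe set with an alternative, 2 moved by more than the SD between replicates, Sox2 (0.31) and Slc1a3 1426340_at (0.49), both without pair 1. The sign of an uncalled difference changed in 44 of the 354, of which 39 left out an array or a pair, and 3 of the 17 probe sets, Car14, Kcnj10 and Slc1a3 1443749_x_at, kept 1 sign throughout. Leaving out 1 array put the median of the 17 between -0.18 and 0.081. The count at an unadjusted p of 0.05, 0 as reported, was 1 with no filter (Slc1a3 1439072_at), 1 with the replicate block (paired fit) and 2 when that block was joined to an intensity trend (Slc1a3 1443749_x_at and Glul 1426235_a_at). Quantile and median scaling moved the median of all probe sets by under 0.1.

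Over all probe sets, the unadjusted count of 209 became 1144 with no filter, 127 with a filter at 8, 436 with array weights, 887 with the replicate block, 779 with block plus trend, and 209 to 560 when 1 array was left out. The methods' t-test counted 300 of all and 0 of the 17, and 0 after adjustment. Under block plus trend 6 passed adjustment, and 0 otherwise. The 8 reactive genes counted became 5 with the methods' t-test, 3 with its unequal-variance form, 4 without pair 1, 4 without pair 2, 4 without the genes the study names and 5 to 10 when 1 array was left out. Their median of 1.06 ran from 0.67 to 1.39 when 1 array was left out. The causes of these shifts were not tested. The replicate block ended no call. It raised the counts of reactive (8 to 11), microglia (1 to 4), horizontal cell (2 to 3) and other Müller glia genes (1 to 2) and took those of astrocyte, endothelial and amacrine genes from 0 to 1. With no filter and a floor at 6, chosen after seeing the data, Slc1a3 1439072_at differed by 0.23 in place of 2.20.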
